A study of Mus musculus with 9 samples.

Results

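The 10 genes described here encode the kinase JAK2, the transcription factors STAT5A and STAT5B, and the proteins of the SOCS and PIM families that act after them: Cish, Socs1, Socs2, Socs3, Pim1, Pim2 and Pim3. They were chosen by name, as 10 of the 55291 gene symbols in the count tables, and with earlier results of these data known. All 10 were among the 15066 genes with enough reads to be tested. The libraries hold RNA of murine AML (acute myeloid leukaemia) cells that carry Trp53(R172H/delta), where R172H is a missense change in p53. The cells came from in vitro cultures, from the bone marrow of wild-type recipient mice, or from the lungs of such mice, and each of these 3 groups has 3 libraries. Every group carries the same Trp53 genotype, so no comparison here is about that genotype. The labels used here give no age, mouse strain, time after transplantation or sorting step, and they do not say whether libraries of a group came from separate cultures or mice. All p-values therefore set differences between groups against the spread between these libraries, which may be partly technical.

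JAK2 is a tyrosine kinase bound to the inner part of cytokine receptors such as those for erythropoietin, interleukin-3 and GM-CSF. Once a cytokine binds, JAK2 phosphorylates the receptor and then STAT5A and STAT5B, which move to the nucleus and switch on genes. Cish and the SOCS genes are among those targets, and their proteins bind the receptor or the kinase and dampen the signal, closing a feedback loop. The PIM genes are targets too, and encode constitutively active serine/threonine kinases that favour survival and growth of blood cells. SOCS1 and SOCS3 are also induced by interferons and by the interleukin-6 family through other STAT proteins.

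Gene counts summed to between 27485111 and 38761363 reads per library. Levels are given as CPM, the read count scaled per library by its TMM-adjusted total, so that 1 read corresponded to 0.0249 to 0.0371 CPM. Trp53 itself was at 292.7 to 380.8 CPM over the 9 libraries. The progenitor genes Kit (505.7 to 1214 CPM) and Myb (415.2 to 554.6 CPM) and the erythroid factor Klf1 (261.3 to 334 CPM) were abundant in every library. Of the general blood and myeloid markers, Ptprc (CD45) lay at 1.31 to 17.2 CPM, and Cebpa and Cd33 had 0 reads in all culture libraries. Summed over 10 neutrophil markers, led by Ngp and S100a8, the level was 1.28 to 2.62 CPM in culture, 325, 583 and 2040 CPM in the bone marrow libraries (replicates 1 to 3), and 85.1, 11.6 and 12.4 CPM in the lung libraries. In these bulk libraries, fewer cells of a type and less RNA per cell cannot be told apart.

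Promoter sequence was looked at in RefSeq windows of GRCm38.p6 that run from 250 bases before to 50 bases after an annotated start, 300 bases in all. Such windows existed for 9 of the 10 genes (12 windows), not for Socs2. A pair of motifs was searched, chosen with the expression results known: TTCNNNGAA, the palindrome that STAT dimers bind (it reads the same on both strands), and GAAANNGAAA, a repeat bound by interferon regulatory factors, on both strands. The first occurred in 8.30% of all 32851 windows and the second in 3.44%. Among the 12 member windows, the STAT palindrome was found in those of Cish (2 matches) and Socs3 (1 match), and the IRF repeat in that of Socs1 (2 matches that overlap). Windows with at least 2 STAT palindromes made up 0.457% of all windows, and those with at least 2 IRF repeats 0.225%. A match is a description of these letters and not evidence of binding. The 3 stretches are shown because they belong to the members whose levels differed most between the groups, each from 5′ to 3′ on the gene's strand with the motif letters in capitals.
Cish, chr9:107296654-107296683 (plus strand): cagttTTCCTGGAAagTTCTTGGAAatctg
Socs3, chr11:117969461-117969570 (minus strand): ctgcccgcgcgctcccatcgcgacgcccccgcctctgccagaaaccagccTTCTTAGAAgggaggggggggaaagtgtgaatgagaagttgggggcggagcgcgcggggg
Socs1, chr16:10785570-10785669 (minus strand): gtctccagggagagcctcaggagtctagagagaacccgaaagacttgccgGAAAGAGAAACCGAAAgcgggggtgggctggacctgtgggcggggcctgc
In Cish the pair occupies bases 1 to 9 and 12 to 20 counted from the RefSeq start as base 1. GENCODE M21 annotates 5 other starts for this gene: the letters lie downstream of that at 107296026 and upstream of the starts at 107296710, 107296907, 107296912 and 107299155. The Socs3 match spans bases -154 to -146 and the Socs1 matches bases -83 to -74 and -77 to -68 from their RefSeq starts. The Socs3 letters, at 117969512 to 117969520, lie inside that gene in GENCODE M21, downstream of its outermost start at 117970047. The Socs1 letters lie upstream of the outermost GENCODE M21 start of that gene, at 10785536.

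In lung against bone marrow, which asks how leukaemia cells differ between these tissues, 5 of the 10 genes rose and 0 fell (edgeR adjusted p under 0.05), namely Cish, Socs1, Socs2, Socs3 and Pim3. Jak2, Stat5a, Stat5b, Pim1 and Pim2 did not pass. Among all genes tested, 14.2% were higher and 11.1% lower in lung at the same threshold. The median log2 change was 0.42 over the 10 genes and -0.01 over all tested genes. Libraries of the groups did not overlap for 7 of the 10, where 36.6% of all tested genes had groups that did not overlap. The number of genes called over the whole table fell from 3806 to 2473 without bone marrow replicate 2 and to 2414 without lung replicate 2, while 5 or 6 members were called without any single library.

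Bone marrow against culture compares cells taken from that tissue with cells grown in vitro. Of the 10 genes 2 rose (Socs1 and Stat5a) and 6 fell (Cish, Socs2, Socs3, Pim2, Stat5b and Jak2), against 30.7% of all tested genes higher and 29.8% lower. All 10 had groups that did not overlap, a property shared by 67.2% of all tested genes. In lung against culture 4 rose (Cish, Socs1, Pim3 and Stat5a) and 2 fell (Stat5b and Jak2), against 27.9% higher and 27.0% lower among all tested genes. The groups did not overlap for 8 of the 10, and for 66.8% of all tested genes. With so large a share of the whole table called against culture, the counts of members there are not a result about the set. Median log2 changes of the 10 genes were -0.41 in bone marrow and 0.26 in lung against culture, and 0.05 and 0.02 over all tested genes. The comparisons share groups and are not independent of each other.

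**Figure D1:**
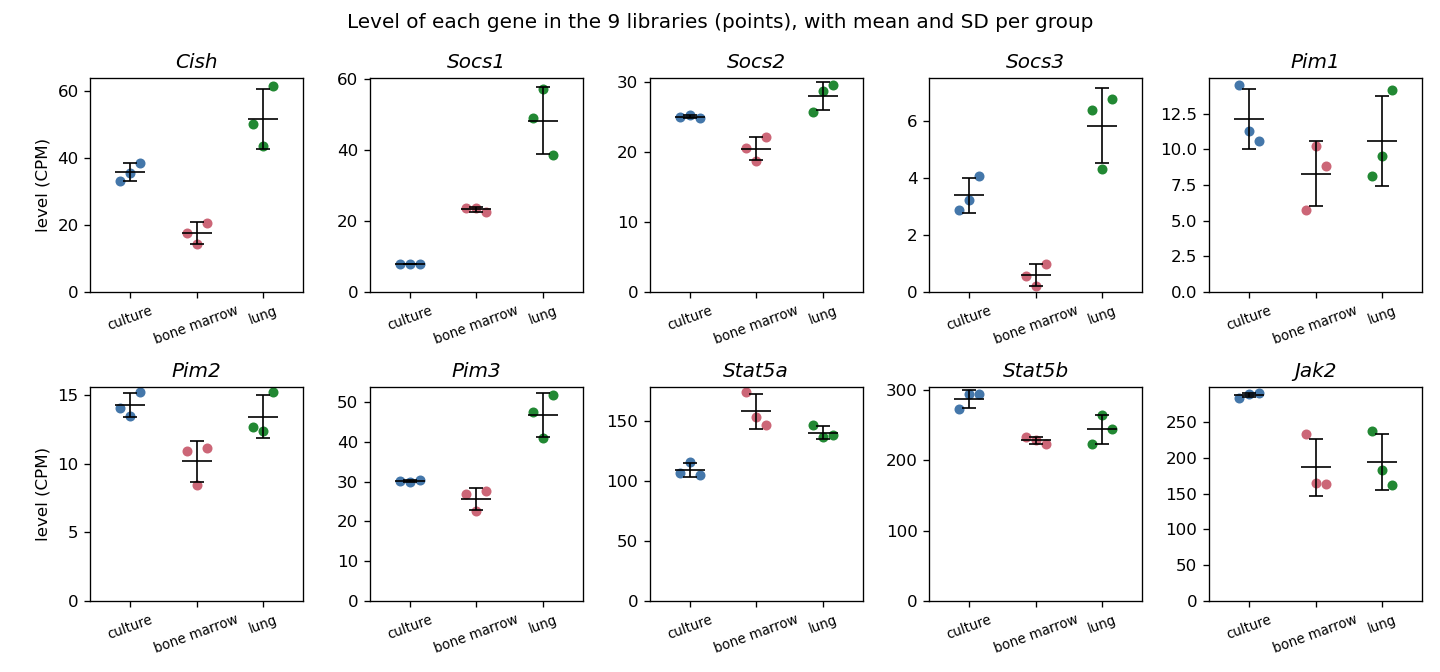
Level of each of the 10 genes in CPM (vertical axes, starting at 0) in the 3 culture, 3 bone marrow and 3 lung libraries (points, replicates 1 to 3 from left to right), with the mean (long dash) and SD (capped bar) of each group. Cish, Socs2, Socs3 and Pim3 are lowest in bone marrow and highest in lung, Socs1 steps up from culture to bone marrow to lung, and Jak2 is highest in culture.

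Jak2 (chromosome 19, 29251828 to 29313080, GRCm38, GENCODE M21) was measured at 283.9, 289.4 and 289.9 CPM in culture replicates 1 to 3. It was at 232.6, 164.5 and 162.7 CPM in bone marrow and at 237.4, 182.6 and 162.3 CPM in lung. Every tissue library lay below every culture library, the tissue groups overlapped, and replicate 1 was the highest in both tissues. Jak2 fell by 0.62 ± 0.16 on the log2 scale (SE) in bone marrow against culture (edgeR adjusted p = 0.00468) and by 0.57 ± 0.16 in lung against culture (edgeR adjusted p = 0.00908). Between lung and bone marrow the log2 change was 0.06, with a 95% interval of -0.28 to 0.40 (edgeR adjusted p = 0.815). Its sign turned when bone marrow replicate 2, bone marrow replicate 3 or lung replicate 1 was left out (-0.03, -0.05 and -0.11).

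The STAT5 genes moved in opposite directions against culture. Stat5a (chromosome 11, 100859351 to 100885169) was at 106.4, 115.6 and 104.9 CPM in culture, 174.5, 153.1 and 146.6 CPM in bone marrow, and 146.3, 136.6 and 138.0 CPM in lung. Its neighbour Stat5b (chromosome 11, 100780731 to 100850724) starts 8626 bases away on the opposite strand and encodes a closely related protein. Stat5b was at 272.6, 294.8 and 293.9 CPM in culture, 233.0, 228.3 and 223.4 CPM in bone marrow, and 222.4, 264.3 and 244.8 CPM in lung. No tissue library of either gene reached into the range of the culture libraries. Stat5a rose by 0.54 ± 0.08 in bone marrow (edgeR adjusted p = 9.44e-05) and by 0.36 ± 0.08 in lung (edgeR adjusted p = 0.00227), on the log2 scale against culture. Stat5b fell by 0.33 ± 0.08 in bone marrow (edgeR adjusted p = 0.00254). In lung it fell by 0.24 ± 0.08 (edgeR adjusted p = 0.0212), a call lost without culture replicate 2 (adjusted p = 0.063), culture replicate 3 (0.067) or lung replicate 1 (0.109), under total count scaling (0.0503) and without the low-count filter (0.0646).

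Neither STAT5 gene passed in lung against bone marrow. The lung libraries of Stat5a all lay below those of bone marrow, by as little as 146.3 against 146.6 CPM, and the groups overlapped for Stat5b. The log2 change was -0.17 for Stat5a (95% interval -0.35 to 0.01, edgeR adjusted p = 0.147) and 0.10 for Stat5b (-0.07 to 0.27, edgeR adjusted p = 0.40). The genes share sequence, and how the authors' counting treated reads that fit both is not given in the sources used here, so a part of the reads of each may be misassigned. A ratio within a library does not depend on scaling. Stat5a had 0.39, 0.392 and 0.357 reads per read of Stat5b in culture, 0.749, 0.671 and 0.656 in bone marrow, and 0.658, 0.517 and 0.564 in lung. The 6 tissue ratios were all above the 3 culture ratios, and the tissues overlapped. Between libraries of the same number the ratio was lower in lung in 3 of 3 cases. The tests here do not use the numbers, as the labels do not say that they mark pairs. Exact two-sided permutation tests gave p = 0.1 for each tissue against culture, the smallest that 3 against 3 libraries allow, and p = 0.2 between the tissues. This ratio and the others below were chosen after the data were seen.

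**Figure D2:**
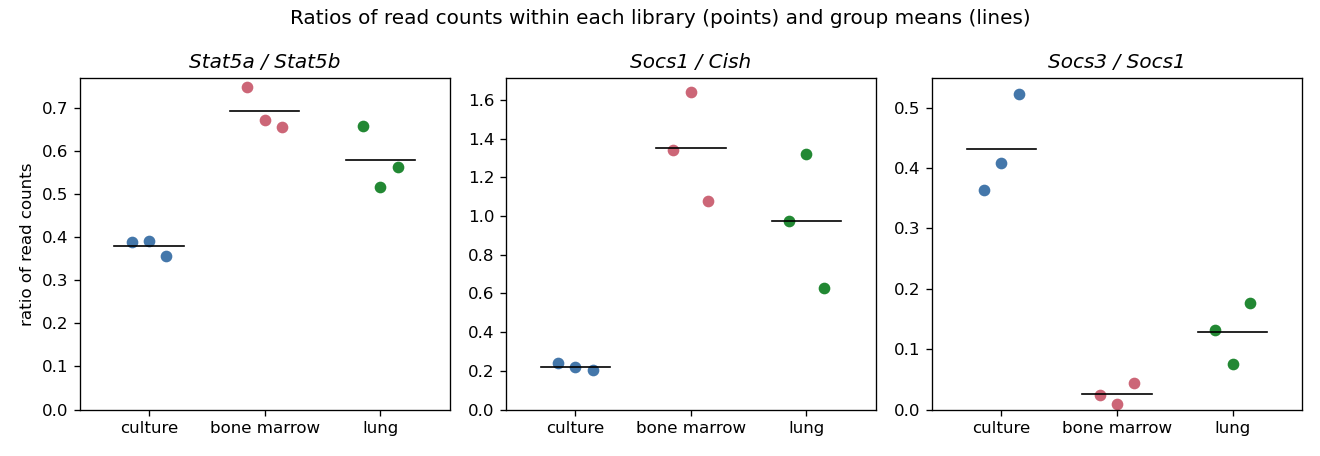
Ratio of read counts within each library (vertical axes, starting at 0, not scaled for gene length) for Stat5a over Stat5b, Socs1 over Cish and Socs3 over Socs1 by group, with 1 point per library and a line at the group mean. Stat5a over Stat5b lies between 0.357 and 0.392 in culture and above 0.5 in all 6 tissue libraries, and Socs3 over Socs1 is below 0.05 in the 3 bone marrow libraries.

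Cish, whose product CIS binds cytokine receptors at the sites that STAT5 would occupy, is the classical STAT5 target. It lies on chromosome 9 from 107296026 to 107302784. Its level was 33.2, 35.7 and 38.5 CPM in culture, 17.7, 14.4 and 20.8 CPM in bone marrow, and 50.1, 43.5 and 61.5 CPM in lung. The 3 groups did not overlap, with bone marrow lowest and lung highest. Cish was 2.93-fold higher in lung than in bone marrow (log2 change 1.55 ± 0.15, edgeR adjusted p = 1.74e-05). Against culture it fell by 1.02 ± 0.15 on the log2 scale in bone marrow (edgeR adjusted p = 5.51e-05) and rose by 0.53 ± 0.15 in lung (edgeR adjusted p = 0.0072). On the other strand, Gm17040 and Gm17041 overlap Cish, with at most 0.519 CPM and 0 CPM in any library. How the authors' counting treated reads in such overlaps is not given, so these levels do not show whether Cish lost reads there.

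Socs3, which encodes an inhibitor of receptors that signal through gp130 and of the G-CSF receptor, followed the same order of groups at a much lower level. It lies on chromosome 11 from 117966079 to 117970047. The level was 2.89, 3.23 and 4.08 CPM in culture (78, 105 and 115 reads), 0.57, 0.22 and 0.99 CPM in bone marrow (19, 7 and 40 reads), and 6.39, 4.34 and 6.80 CPM in lung (244, 133 and 215 reads). Every lung library was above every culture library, and every bone marrow library was below. Socs3 was 9.61-fold higher in lung than in bone marrow, a log2 change of 3.26 ± 0.39 (edgeR adjusted p = 0.000137). Over 17 alternative fits, which include leaving out each library, that change was 2.89 to 3.86, and it was 3.86 without bone marrow replicate 3. That library had the most Socs3 reads and also the highest neutrophil sum of its group. Bone marrow replicate 2 had the next highest sum and the fewest Socs3 reads. In bone marrow Socs3 fell by 2.48 ± 0.39 on the log2 scale against culture (edgeR adjusted p = 0.000117), and by 3.10 without bone marrow replicate 3. Over the 17 alternative fits that change was -3.1 to -2.11. The lung change against culture, 0.78 ± 0.34, did not pass (edgeR adjusted p = 0.0659), but did without bone marrow replicate 2 (adjusted p = 0.0185) or bone marrow replicate 3 (0.0173), with the replicate block (0.0217), in DESeq2 (0.0417), in the fit of these 6 libraries alone (0.00548), without the low-count filter (0.00742) and with the stricter one (0.045).

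Socs1 had a different pattern, with culture lowest. The gene, on chromosome 16 from 10782240 to 10785536, encodes a direct inhibitor of JAK kinase activity that is best known as a brake on interferon signalling. Levels were 7.94, 7.91 and 7.81 CPM in culture, 23.7, 23.6 and 22.5 CPM in bone marrow, and 49.0, 57.3 and 38.5 CPM in lung. The groups were separate. Culture libraries (214 to 257 reads) and bone marrow libraries (761 to 904 reads) each lay within a narrow range, which at such counts does not show tight expression. Socs1 was 2.95-fold higher in bone marrow than in culture (log2 change 1.56 ± 0.14, edgeR adjusted p = 4.59e-07) and 6.11-fold higher in lung than in culture (2.61 ± 0.14, edgeR adjusted p = 8.21e-09). Lung exceeded bone marrow by a log2 change of 1.05 ± 0.13 (edgeR adjusted p = 0.000115).

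Ratios of these inhibitors within a library were also compared. Socs1 had 0.239, 0.222 and 0.203 reads per read of Cish in culture, 1.34, 1.64 and 1.08 in bone marrow, and 0.976, 1.32 and 0.626 in lung. Culture lay below both tissues (exact two-sided permutation p = 0.1 for each, the smallest possible), and the tissues overlapped (p = 0.2, unpaired). Between libraries of the same number this ratio was lower in lung in 3 of 3 cases. Socs3 had 0.364, 0.409 and 0.523 reads per read of Socs1 in culture, 0.0239, 0.0092 and 0.0442 in bone marrow, and 0.131, 0.0757 and 0.177 in lung. The 3 groups did not overlap for that ratio (exact permutation p = 0.1 for each comparison, the smallest possible).

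Socs2, a feedback inhibitor best known for limiting growth hormone signalling, had the smallest tissue difference among Cish, Socs1, Socs2 and Socs3. It lies on chromosome 10 from 95385362 to 95417180 and was at 25.0, 25.2 and 24.8 CPM in culture, 20.6, 18.7 and 22.2 CPM in bone marrow, and 25.8, 28.7 and 29.5 CPM in lung. The groups did not overlap, and their ranges lay close together. In lung Socs2 was 1.37-fold higher than in bone marrow (log2 change 0.45 ± 0.10, edgeR adjusted p = 0.00708). It fell by 0.29 ± 0.10 in bone marrow against culture (edgeR adjusted p = 0.0269), a call that was lost without culture replicate 1, 2 or 3 (adjusted p = 0.0526, 0.0636 and 0.0554) or bone marrow replicate 2 (0.0914), and under upper-quartile scaling (0.0822), total count scaling (0.0816) and no low-count filter (0.0896). Lung against culture gave a log2 change of 0.16 with a 95% interval of -0.06 to 0.38 (edgeR adjusted p = 0.199).

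**Figure D3:**
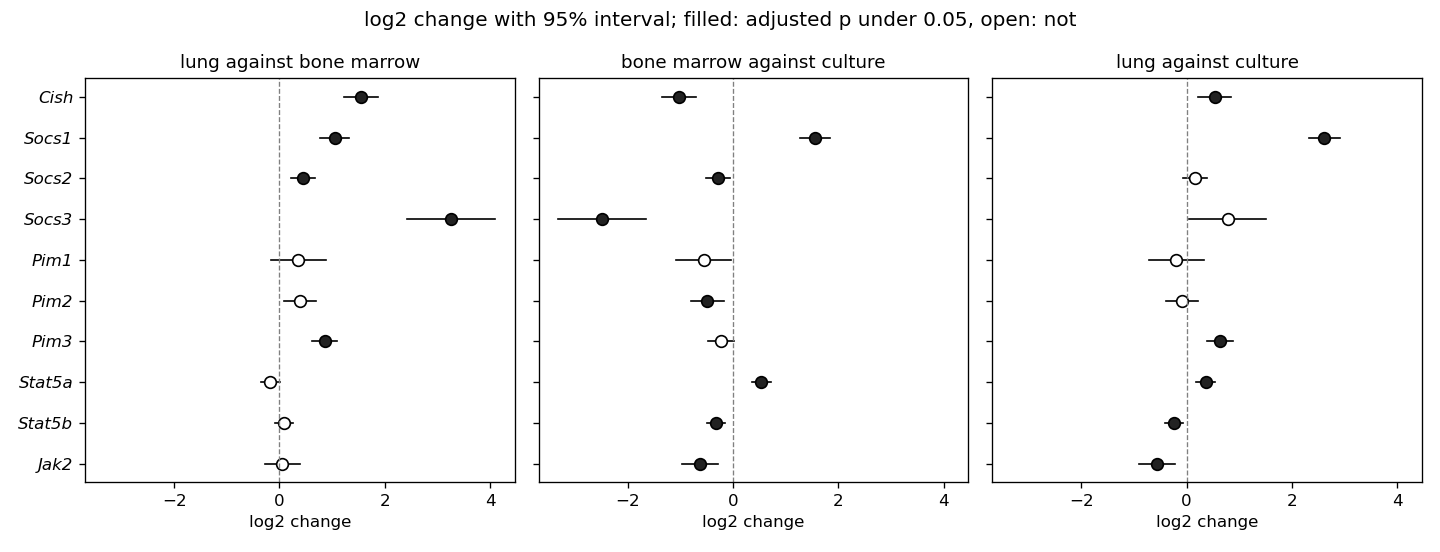
log2 change of each gene (horizontal axes) in each of the 3 comparisons, with points for the estimate, lines for the 95% interval, and filled points where the edgeR adjusted p was under 0.05. Socs3 has the widest interval in each panel and the largest change in both comparisons with bone marrow, Socs1 is right of 0 in all 3 panels, and Jak2, Stat5a and Stat5b lie near 0 in lung against bone marrow.

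Among the PIM kinases, Pim3 changed between the tissues. It is on chromosome 15 from 88862186 to 88865726 and was at 30.1, 29.8 and 30.4 CPM in culture, 27.0, 22.5 and 27.5 CPM in bone marrow, and 47.4, 40.9 and 51.8 CPM in lung. All lung libraries were above all others. Pim3 was 1.82-fold higher in lung than in bone marrow (log2 change 0.86 ± 0.11, edgeR adjusted p = 0.000189) and 1.55-fold higher than in culture (0.63 ± 0.11, edgeR adjusted p = 0.000298). Bone marrow against culture gave -0.23 (95% interval -0.47 to 0.01, edgeR adjusted p = 0.0899).

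Pim2, on chromosome X from 7878262 to 7883432, fell in bone marrow. Its level was 14.1, 13.5 and 15.2 CPM in culture, 10.9, 8.45 and 11.1 CPM in bone marrow, and 12.7, 12.3 and 15.2 CPM in lung. Bone marrow lay below both other groups, which overlapped. Against culture it fell by 0.48 ± 0.14 on the log2 scale in bone marrow (edgeR adjusted p = 0.00948), while lung against culture gave -0.09 (95% interval -0.39 to 0.22, adjusted p = 0.623). Lung against bone marrow just missed the threshold, at a log2 change of 0.40 ± 0.14 (edgeR adjusted p = 0.0553). That change passed with the replicate block (0.0315), in DESeq2 (0.0304) and without bone marrow replicate 1 (0.0451).

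Pim1, the founding member of the family and a common STAT5 and STAT3 target, had the widest spread of the 3. It is on chromosome 17 from 29490753 to 29496112. Levels were 14.5, 11.3 and 10.6 CPM in culture, 5.77, 10.3 and 8.82 CPM in bone marrow, and 8.15, 9.53 and 14.2 CPM in lung. Lung overlapped both other groups. No comparison passed: the log2 change was -0.55 (95% interval -1.07 to -0.03, edgeR adjusted p = 0.0635) in bone marrow against culture, 0.36 (-0.17 to 0.88, adjusted p = 0.30) in lung against bone marrow, and -0.20 (-0.71 to 0.32, adjusted p = 0.509) in lung against culture. The first of these passed without bone marrow replicate 2 (adjusted p = 0.034), lung replicate 1 (0.0488) or lung replicate 3 (0.0286), in DESeq2 (0.0382), in the 6 libraries alone (0.0448) and without the low-count filter (0.00527). A predicted gene on the other strand, Gm26885, overlaps Pim1 and reached 0.949 CPM. That level does not show whether Pim1 lost reads in the overlap.

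Levels of different genes can be compared only per length, here as CPM per kb of the gene's exons in GENCODE M21 (all transcripts merged, which understates genes with rarely used long exons). For Cish the merged exons cover 6419 bases, almost the whole gene, so its level and its place beside Socs1 may be understated. On that scale Jak2 and Stat5b were the most abundant in every group, with means of 57.2 and 51.8 CPM per kb in culture, 37.1 and 41.2 in bone marrow, and 38.6 and 44.0 in lung. Their ranges overlapped in both tissues. Stat5a came next in each group (15.3, 22.2 and 19.7 CPM per kb), followed by Pim3 (12.4, 10.6 and 19.2). In lung the ranges of Stat5a, Pim3 and Socs1 overlapped from one to the next. Socs1 had the 8th place of 10 in culture, at 2.71 CPM per kb, and the 5th in both tissues, at 7.99 in bone marrow and 16.6 in lung. Socs3 was last in every group, at 1.18, 0.205 and 2.02 CPM per kb.

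**Figure D4:**
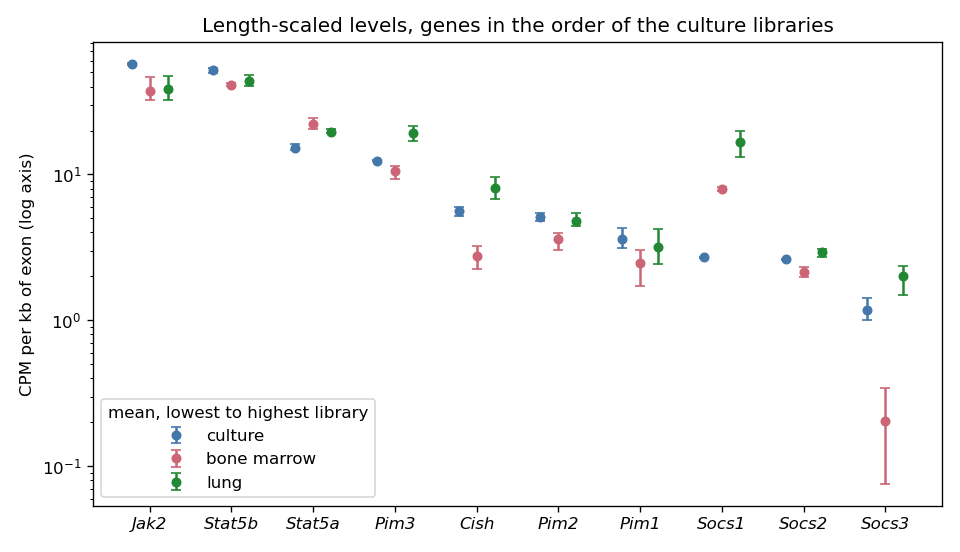
CPM per kb of exon (vertical axis, logarithmic) for the 10 genes in the order of the culture libraries, with the mean (points) and the lowest to highest library (bars) of each group. Jak2 and Stat5b are at the top in all groups, Socs1 climbs past Cish, Pim1 and Pim2 in the tissues, and Socs3 is lowest.

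The coefficient of variation between replicates was larger in both tissues than in culture for 8 of the 10 genes, and for 56.7% of the 14869 tested genes with reads in every group, so the count is no result about these genes. In culture it was 18% or less for every gene and near 1% for Socs1 (0.837%), Socs2 (0.821%), Pim3 (1.03%) and Jak2 (1.16%). Culture libraries had 214 to 257 reads of Socs1, 674 to 820 of Socs2 and 811 to 969 of Pim3. For these genes the values are smaller than random counting of reads alone gives on average. They therefore do not show tight expression. In bone marrow it reached 65.8% for Socs3, 27.6% for Pim1 and 21.4% for Jak2. In lung the largest values were 29.7% for Pim1, 22.6% for Socs3 and 20% for Jak2.

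The counts of the lists below stand beside these shares of all tested genes, each with the median log2 change. In lung against bone marrow 14.2% were higher and 11.1% lower (-0.01). In bone marrow against culture 30.7% were higher and 29.8% lower (0.05), and in lung against culture 27.9% and 27% (0.02). Among receptors that signal through JAK2, 12 of 15 listed genes had enough reads to be tested. In lung against bone marrow 4 rose and 0 fell (median log2 change 0.20), in bone marrow against culture 6 rose and 2 fell (0.44), and in lung against culture 7 rose and 0 fell (1.0). Among the risers against culture, Csf2ra, Csf3r, Il3ra and Il6ra in both tissues and Il6st in lung stayed below 11 CPM in every library, and are named after their values were seen. Csf3r, the G-CSF receptor, had levels of 0.684, 1.77 and 10.96 CPM in the bone marrow libraries, and Csf2ra, the GM-CSF receptor alpha chain, at 0.714, 1.55 and 7.83 CPM, each in the order of the neutrophil sums (325, 583 and 2040 CPM). Il6st, encoding gp130, was at 4.19, 1.83 and 1.08 CPM in lung, highest in replicate 1, which had the highest endothelial, epithelial, stromal and neutrophil sums. Replicates 2 and 3 had the reverse order in their endothelial sums (15.3 and 19.1 CPM). The part of other cell types in these receptor counts was not tested. Epor, the erythropoietin receptor, was at 131.3, 136.2 and 124.4 CPM in culture, 175.4, 187.4 and 175.6 CPM in bone marrow, and 156.4, 164.5 and 175.5 CPM in lung. It rose by 0.46 ± 0.08 in bone marrow and by 0.34 ± 0.08 in lung against culture on the log2 scale (edgeR adjusted p = 0.000154 and 0.00181), in the direction of Stat5a and opposite to Jak2. Csf2rb, the shared beta chain of the GM-CSF, interleukin-3 and interleukin-5 receptors, was at 20.9, 21.5 and 22.1 CPM in culture, 1.90, 2.57 and 6.61 CPM in bone marrow, and 12.9, 19.9 and 8.51 CPM in lung. It was thus lowest in bone marrow like Cish, and fell there by 2.52 ± 0.47 against culture (edgeR adjusted p = 0.00186). Its bone marrow libraries were also in the order of the neutrophil sums. In lung Csf2rb exceeded bone marrow by 1.88 ± 0.47 (edgeR adjusted p = 0.0222). The mouse paralog Csf2rb2 is near-identical to it, so the split of reads between these genes is uncertain. Ifngr1, a chain of the interferon gamma receptor, rose by 0.42 in bone marrow and 0.34 in lung against culture (edgeR adjusted p = 0.00195 and 0.00802).

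Of the other JAK and STAT genes, 7 of 8 were tested (not Stat4). In lung against bone marrow 4 rose and 0 fell (median 0.27), in bone marrow against culture 1 rose and 5 fell (-0.40), and in lung against culture 2 rose and 3 fell (-0.26). Jak3 fell by 0.88 ± 0.12 in bone marrow (edgeR adjusted p = 3.62e-05) and by 0.35 ± 0.12 in lung (0.0245), and Tyk2 by 0.67 ± 0.09 and 0.37 ± 0.09, each against culture. Stat3, whose gene overlaps the end of Stat5a by 72 bases on the other strand, rose by 0.32 ± 0.08 in lung against culture (edgeR adjusted p = 0.00334).

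The remaining SOCS genes and the partners of the SOCS box, which link SOCS proteins to a ubiquitin ligase, both rose and fell. Their counts lie near the shares of all tested genes and are no result about this list. Of 8 genes, all tested, 1 rose and 2 fell in lung against bone marrow (median 0.10), 3 rose and 3 fell in bone marrow against culture (0.01), and 2 rose and 3 fell in lung against culture (0.07). Socs5 was at 10.3, 10 and 11.5 CPM in culture, 2.11, 1.83 and 1.86 CPM in bone marrow, and 8.77, 7.57 and 7.28 CPM in lung. It fell by 2.45 ± 0.16 in bone marrow against culture (edgeR adjusted p = 3.96e-08) and by 0.43 ± 0.15 in lung (0.025). It exceeded bone marrow in lung by 2.02 ± 0.16 (edgeR adjusted p = 2.24e-06), a comparison for which it was named after its values were seen. Socs6 fell by 0.62 ± 0.10 in bone marrow and by 0.48 ± 0.10 in lung against culture. The ligase subunits Elob and Rnf7 rose in bone marrow, by 0.49 ± 0.10 and 0.76 ± 0.08, and in lung, by 0.31 ± 0.10 and 0.33 ± 0.08, against culture, whereas Eloc and Rnf7 fell in lung against bone marrow by 0.37 ± 0.08 and 0.43 ± 0.08.

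Other negative regulators of JAK and STAT signalling (12 genes, all tested) rose in 4 cases and fell in 0 in lung against bone marrow (median 0.26). In bone marrow against culture 2 rose and 8 fell (-0.34), and in lung against culture 3 rose and 2 fell (-0.13). Usp18, which removes the ubiquitin-like protein ISG15 and blocks the type I interferon receptor, was at 0.668, 0.800 and 0.604 CPM in culture, 10.4, 9.20 and 8.73 CPM in bone marrow, and 20.3, 14.0 and 16.9 CPM in lung. It rose by 4.61 ± 0.21 in lung against culture (edgeR adjusted p = 1.92e-09) and by 0.86 ± 0.16 in lung against bone marrow (0.00231). Ptpn6, the phosphatase SHP-1, rose by 0.52 ± 0.09 in bone marrow and 0.36 ± 0.09 in lung against culture. Pias1, a SUMO ligase that restrains STAT proteins, fell by 0.79 ± 0.09 in bone marrow and 0.66 ± 0.09 in lung against culture, and the ubiquitin ligase gene Cblb fell by 0.65 ± 0.13 in bone marrow and exceeded bone marrow in lung by 0.41 ± 0.13 (edgeR adjusted p = 0.0371). The phosphatase gene Ptpn2 fell by 0.33 ± 0.09 in lung against culture.

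Textbook STAT5 targets outside the 10 genes did not move as one. Of 14 genes 13 were tested, and in lung against bone marrow 4 rose and 2 fell (median 0.28), in bone marrow against culture 4 rose and 7 fell (-0.47), and in lung against culture 4 rose and 5 fell (-0.13). Ccnd2, encoding cyclin D2, was at 148.7, 147.3 and 150.7 CPM in culture, 110.8, 107.3 and 104.3 CPM in bone marrow, and 135.5, 169.6 and 171.8 CPM in lung. This was a log2 difference of 0.56 ± 0.09 between the tissues (edgeR adjusted p = 0.000949). The cytokine gene Osm, a direct STAT5 target, rose by 0.28 ± 0.11 in lung against culture (edgeR adjusted p = 0.0475), as did the survival gene Mcl1 by 0.24 ± 0.08 (0.0227). Bcl2l1 and Bcl2 of the same list went the other way there, with log2 changes of -0.467 and -0.440 (edgeR adjusted p = 0.00423 and 0.0053). So did Bcl6, at low levels (-0.954, edgeR adjusted p = 0.0138). These 3 genes are named after their values were seen. Myc was higher in bone marrow than in culture by 0.28 ± 0.08 and lower in lung than in bone marrow (-0.41 ± 0.08), and Id1 changed by 0.83 ± 0.16 and -0.83 ± 0.16 in the same comparisons. Tfrc, the transferrin receptor, fell by 1.16 ± 0.19 in bone marrow and by 0.92 ± 0.19 in lung against culture. Cdkn1a, also a p53 target, was at 35.1, 32.7 and 36.4 CPM in culture, 2.56, 1.33 and 1.02 CPM in bone marrow, and 16.7, 21.1 and 11.5 CPM in lung, lowest in bone marrow like Cish and Socs3 but with culture above lung.

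Because Socs3 responds to STAT3 as well, a list of STAT3 targets was read beside it. Of 12 STAT3 targets 10 were tested, and 6 rose and 1 fell in lung against bone marrow (median 0.98), 1 rose and 4 fell in bone marrow against culture (-0.36), and 4 rose and 1 fell in lung against culture (0.43). Fos and Junb, which belong to this list and to the immediate early genes, rose in lung against bone marrow by 8.34 ± 0.25 and 3.10 ± 0.23. Cebpb fell by 3.30 ± 0.46 in bone marrow and by 1.59 ± 0.42 in lung against culture, and Birc5, encoding survivin, was lower in lung than in bone marrow (-0.41 ± 0.08).

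Substrates of the PIM kinases were mixed. Of 10 genes 9 were tested, and 3 rose and 2 fell in lung against bone marrow (median 0.02), 1 rose and 4 fell in bone marrow against culture (-0.25), and 2 rose and 4 fell in lung against culture (-0.09). The cell cycle inhibitor gene Cdkn1b fell by 1.65 ± 0.17 in bone marrow and 1.67 ± 0.17 in lung against culture, and Foxo3 by 1.52 ± 0.13 and 1.26 ± 0.13. Bad, a death-promoting gene whose product PIM kinases inactivate, rose by 0.66 ± 0.12 in bone marrow and 0.48 ± 0.12 in lung against culture. In lung against bone marrow Nfatc1 rose by 0.65 ± 0.18 and the cell cycle phosphatase gene Cdc25a by 0.40 ± 0.11, while Cdc25c (-0.49 ± 0.13) and Cbx3 (-0.43 ± 0.11) were lower.

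**Figure D5:**
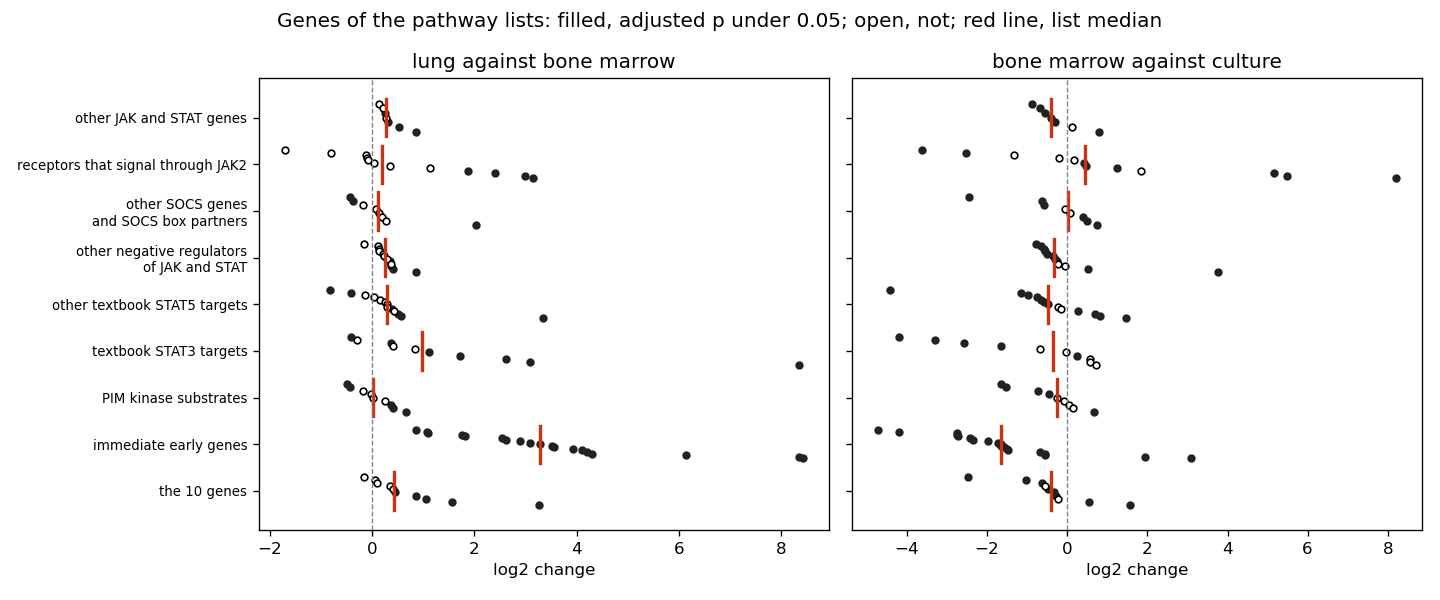
log2 change (horizontal axes) of every tested gene of 8 lists and of the 10 genes described here, in lung against bone marrow (left) and bone marrow against culture (right), with filled points where the edgeR adjusted p was under 0.05, open points otherwise, and a red line at each median. Immediate early genes lie furthest to the right in the left panel (median 3.29), while the 10 genes have a median of 0.42 there and of -0.41 in the right panel.

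Several other measurements moved with these results. Of 20 immediate early genes 19 were tested, and 19 rose and 0 fell in lung against bone marrow (median log2 change 3.29), 2 rose and 17 fell in bone marrow against culture (-1.66), and 14 rose and 1 fell in lung against culture (1.45). Fos is also given above, and of the others named by rule Fosb rose by 8.42 ± 0.27 in lung against bone marrow, Klf2 by 6.62 ± 0.62 in lung against culture, and Egr1 fell by 4.71 ± 0.19 in bone marrow and 0.41 ± 0.15 in lung against culture. Their summed level was 1132, 1146 and 1049 CPM in culture, 311.3, 329.5 and 333.5 CPM in bone marrow, and 2874, 2826 and 3821 CPM in lung. This is the same order of groups as for the means of Cish, Socs2, Socs3 and Pim3. Neutrophil markers rose in 10 of 10 genes in bone marrow against culture, and 9 of 10 fell in lung against bone marrow. Their part in the results for the members was not tested, nor was that of the immediate early genes. In bone marrow, where the neutrophil sums were highest, Stat5a had its highest group mean, Socs1 lay between culture and lung, and the other 8 genes had their lowest group mean. Within bone marrow, Stat5a, Stat5b, Jak2 and Socs1 fell from replicate 1 to 3, where the neutrophil sum rose. Cish, Socs2, Socs3, Pim2 and Pim3 were highest in replicate 3, and Pim1 in replicate 2.

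Levels also differed for markers of other cell types. The summed level of 12 monocyte and macrophage markers, led by Lyz2 and Csf1r, was 3.52 to 3.91 CPM in culture, 44.9 to 334 CPM in bone marrow and 28.3 to 74.2 CPM in lung. In bone marrow Marco had 0 reads. For 9 T and NK cell markers, led by Cd2 and Nkg7, the sums were 0.223 to 0.355, 1.61 to 3.85 and 3.98 to 5.45 CPM, and for 6 B cell markers, led by Cd79a, 0.431 to 0.594, 1.16 to 11.4 and 1.79 to 4.48 CPM, in the same order of groups. For 8 endothelial markers, led by Vwf and Kdr, they were 5.75 to 6.74, 6.47 to 7.50 and 15.3 to 45.7 CPM. For 7 lung epithelium markers, led by Sftpc and Scgb1a1, they were 0.556 to 1.02, 0.547 to 0.712 and 14.5 to 82.6 CPM, and for 7 stromal markers, led by Dcn and Pdgfrb, 29.1 to 33.6, 36.2 to 54.8 and 32.5 to 59.4 CPM. Dcn made up most of the stromal sums, in culture too (28.5 to 33.1 CPM), so these sums mainly follow that gene. It was at 35 to 50.85 CPM in bone marrow and at 51.7, 53.1 and 29.7 CPM in lung replicates 1 to 3. In bone marrow the epithelium markers Sftpa1 and Cldn18 and the stromal marker Pdgfra had 0 reads. In culture 0 reads were found for, among others, C1qa, C1qc, Marco, Cd3e, Cd2, Ncr1, Cd79b, Ms4a1, Pax5, Emcn, Ramp2, Epcam, Cldn18, Pdgfra, Cxcl12 and Lum. Sums of 8 erythroid markers, led by Klf1 and Epor, were 906 to 931 CPM in culture, 583 to 649 CPM in bone marrow and 568 to 709 CPM in lung. The 5 megakaryocyte markers, led by Gp1ba and Itga2b, summed to 67.6 to 74.2, 52.4 to 65.5 and 53.5 to 72.6 CPM. The 11 leukaemia and progenitor markers, led by Kit and Myb, summed to 1970 to 2070, 1100 to 1310 and 1220 to 1390 CPM. In lung, replicate 1 had the highest endothelial, epithelial, stromal and neutrophil sums, and Jak2 and Stat5a were also highest in replicate 1. Socs1 and Stat5b were highest in lung replicate 2, and the other 6 genes in lung replicate 3. The part of other cell types in the levels of the 10 genes was not tested.

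The genes whose pattern over the 9 libraries was most like that of Cish, Socs2 and Pim1 were found by the root mean square difference of log2 CPM, each gene centred on its own mean. For Cish, among 2399 genes compared, these were Kdm6b (0.186), Hivep2 (0.206) and Noct (0.212). In culture Kdm6b was at 9.85 ± 1.06 CPM, in bone marrow at 4.93 ± 1.19 CPM and in lung at 13.7 ± 2.73 CPM (mean ± SD, n = 3), and Noct at 33.8 ± 1.30, 16.7 ± 0.97 and 38.9 ± 2.04 CPM. For Socs2, among 8446 genes, they included Camta2 (0.0455) and Ubqln4 (0.0639), and for Pim1, among 5269 genes, Afg1l (0.159), Oxnad1 (0.185) and Mus81 (0.19). Camta2 was at 34.8 ± 0.23, 29.1 ± 3.14 and 38.9 ± 3.27 CPM. The group mean of each of the genes named here was lowest in bone marrow. This follows from how they were picked, since Cish, Socs2 and Pim1 were lowest there too.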

How the data were processed

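Per the labels' protocols, total RNA was extracted with a micro-column kit and amplified with the SMART-seq v4 low-input kit, and libraries were made with the ThruPLEX kit. Per the submitters' processing notes, bcl2fastq and STAR were used with the build mm10; their versions, and the counting tool, its annotation and how it treated strand and shared reads, were each not given in the sources used here. The authors deposited unnormalized read counts, with 55291 gene symbols per library, with 0 rows that name no gene; 30802 symbols had reads.

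Genes were kept with filterByExpr (15066, at least 99.9% of each library's reads) and scaled with TMM (factors 0.966 to 1.039). The 3 comparisons were contrasts of the same model, fitted to the 9 libraries by the robust quasi-likelihood method of edgeR 4.0.16 (6 residual degrees of freedom, R 4.3.3), with Benjamini-Hochberg adjustment over all genes and a threshold of 0.05. Errors of log2 changes are standard errors, and intervals cover 95%. No pair of libraries within a group was a duplicate (chi-square per degree of freedom 3.86 to 39.7). The pipeline was tested on simulated data. Positions and exon lengths come from GENCODE M21 (GRCm38, the assembly mm10 names) and promoter windows from RefSeq.

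The 10 genes, the lists and the motifs were chosen with earlier results of these data known. Genes outside the 10 were named by rule: per list and comparison, up to 2 genes per direction with the largest change among those past the threshold and at 10 CPM or more in the higher group, the 2 most abundant markers per cell type and markers without reads in a group, and the 3 genes most like Cish, Socs2 and Pim1. Alternatives were other scalings, filters, DESeq2 1.42.0, 6 libraries alone, a replicate block and leaving out each library. Results for a few genes that this rule names, and for 1 list, are not reported here.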

Additional observations from a re-analysis of the deposited data

Results flagged for a closer look

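Cish changed in opposite directions against culture in the tissues, lower in bone marrow and higher in lung, and the test of the difference itself passed. The log2 changes were -1.02 ± 0.15 and 0.53 ± 0.15, and their difference was 1.55 ± 0.15 (edgeR adjusted p = 1.74e-05), with all 3 lung libraries above all 3 bone marrow libraries. The tissue comparisons share the culture libraries, which cancel in the difference.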

How the results depend on the processing

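Over the 17 alternatives, the 30 changes of the 10 genes gave 510 values, of which 479 kept their direction and their side of the threshold, 12 lost a call, 16 gained one and 3 turned sign. The 3 are those of Jak2 in lung against bone marrow without bone marrow replicate 2 (-0.0262), bone marrow replicate 3 (-0.0499) or lung replicate 1 (-0.11), none of them called; leaving out single libraries gave -0.11 to 0.245. The lost calls concern Socs2 in bone marrow against culture and Stat5b in lung against culture, the gained ones Pim1, Pim2 and Socs3; the cause was not tested. Called members numbered 5 to 6, 7 to 9 and 5 to 7 in lung against bone marrow, in marrow against culture and in lung against culture when single libraries were left out. Called genes over the whole table numbered 2414 to 4760, 7962 to 9343 and 7142 to 8865. The first count, 3806 in all, was 2381 when only the 6 libraries compared were fitted, which uses fewer libraries. The replicate block gave 4133 called genes and 6 members in lung against bone marrow, 9228 and 8 in bone marrow against culture, and 8433 and 7 in lung against culture. Numbers shared by libraries were not taken as pairs: for replicates 1 to 3, the deviations in marrow and in lung had correlations of 0.0061, 0.22 and 0.078 over all tested genes, where not every library correlated best with its own number. Over 6481 genes with a mean of 32 CPM or more the correlations were 0.41, 0.43 and 0.31, and there every marrow and lung library correlated best with its own number, a hint from the data alone. Between libraries of the same number, lung had the lower ratio of Stat5a to Stat5b and of Socs1 to Cish in 3 of 3 cases. Depth limits Socs3 most, with 7 to 40 reads in the bone marrow libraries.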
